A study of Mus musculus with 8 samples.

Results

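The chemokine ligand genes of the mouse lung after pneumonectomy are described here, taken as all genes with a single annotated symbol of the form Ccl, Cxcl, Cx3cl or Xcl and a number with at most 1 letter, and where a gene had several probe sets, the one brightest on average was kept. The rule used no difference between samples, and it found 33 genes of the 18193 measured, on 51 probe sets. By role they fell into 5 neutrophil chemokines, 9 monocyte chemokines, 10 T cell chemokines, 2 eosinophil chemokines and 7 homeostatic chemokines. The roles are those of general knowledge, several members act on more than 1 cell type, and 4 chemokine probe sets with several symbols, among them those of Ccl19 and Ccl21, lay outside the rule.

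Chemokines are small secreted proteins that bind receptors on leukocytes and direct their movement, and the position of the first cysteines gives the CC, CXC, CX3C and XC classes and gene names. A group of CXC chemokines draws neutrophils through Cxcr2, several CC chemokines draw monocytes through Ccr2, and the ligands of Cxcr3 and Ccr4 draw activated T cells. Others are made without injury and place cells within tissues, such as Cxcl12, the ligand of Cxcr4, and Cxcl13, the ligand of Cxcr5 on B cells.

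Lung tissue came from adult female C57BL/6 mice aged 10 to 12 weeks, either after ligation and removal of the left lung (pneumonectomy, PNY) or after thoracotomy without resection (SHAM). The PNY tissue was that of the remaining lung, and whether SHAM tissue included the left lung is not stated in the paper. Both groups had the same anesthesia, intubation and ventilation, ampicillin, opening of the left chest and buprenorphine, so that SHAM lungs are those of operated animals, not of untouched ones. Lungs were taken at 6 hours and at 1, 3 and 7 days, tissue of 8 mice was pooled for each group and time point, and each pool was hybridized to 1 Affymetrix array, giving 4 PNY and 4 SHAM arrays. Values are log2 expression as deposited, so a difference of 1 means a doubling of signal.

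The array medians lay between 5.90 and 5.95. Markers of alveolar type II cells, the surfactant-producing cells of the lung, averaged 12.9 to 13.1 in PNY lungs and 12.9 to 13.0 in SHAM lungs over 6 genes. At 6 hours the SHAM array gave the highest of the 8 values for 12 of the 33 chemokines, and for 18.1% of all genes, while the PNY array gave the lowest for 11 chemokines, and for 13.0% of all genes. With 1 array per group at a time point no difference at a single time point could be tested, and no p-value below measures the spread between mice. In pooled tissue, fewer cells of a type and less RNA per cell cannot be told apart.

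The first question was how the chemokines differed between PNY and SHAM lungs at each time. At 6 hours 11 of the 33 were at least 1.5-fold lower in PNY than in SHAM, where 1.04% of the 18193 genes were, and none was 1.5-fold higher (0.682% of genes). The 11 were Cxcl10, Cxcl1, Cxcl2, Cxcl9, Cxcl3, Ccl7, Ccl3, Ccl2, Ccl22, Ccl8 and Ccl4. Only 4 of the 33 were higher in PNY at all, whereas 53.2% of all genes were, and the median difference was -0.29 over the chemokines against 0.02 over all genes. Of the 13 chemokines with several probe sets, 4 had all of them lower in PNY at 6 hours, among them Cxcl1 and Cxcl9, 2 had all of them higher, and 7 had both signs, with no difference in those 7 beyond 1.5-fold.

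By role, the median difference at 6 hours was -0.96 for neutrophil, -0.59 for monocyte, -0.33 for T cell, -0.42 for eosinophil and -0.17 for homeostatic chemokines. All 10 T cell chemokines, 8 of 9 monocyte and 4 of 5 neutrophil chemokines were lower in PNY, and so were 5 of 7 homeostatic ones. None of the 7 homeostatic chemokines reached 1.5-fold.

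Promoter sequence was at hand for 23 of the 33 chemokines and for 8 of the 11 that were 1.5-fold lower in PNY at 6 hours. Of those 8, Ccl3, Ccl8, Ccl22 and Cxcl9 held no match to the consensus of NF-kB, a transcription factor of inflammatory signalling. For the 4 that held one, the 250 bases before the transcription start are shown. They were taken from RefSeq on build GRCm38.p6 and run 5′ to 3′ on the strand of the gene. Capitals mark matches, on either strand, to that consensus, and in Cxcl10 also to GAAANNGAAA, the core of the interferon-stimulated response element.
Cxcl1 (chr5:90890995-90891244, strand +): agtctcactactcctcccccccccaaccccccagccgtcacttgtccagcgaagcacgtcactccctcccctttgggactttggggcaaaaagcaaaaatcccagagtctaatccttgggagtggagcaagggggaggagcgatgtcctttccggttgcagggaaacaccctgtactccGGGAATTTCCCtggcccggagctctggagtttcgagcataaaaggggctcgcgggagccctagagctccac
Cxcl2 (chr5:90903649-90903898, strand +): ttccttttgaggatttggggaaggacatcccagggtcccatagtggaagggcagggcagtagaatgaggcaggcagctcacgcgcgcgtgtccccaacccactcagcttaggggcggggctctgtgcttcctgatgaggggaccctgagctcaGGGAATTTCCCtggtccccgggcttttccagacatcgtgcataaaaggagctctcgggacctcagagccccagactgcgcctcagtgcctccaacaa
Cxcl3 (chr5:90785851-90786100, strand +): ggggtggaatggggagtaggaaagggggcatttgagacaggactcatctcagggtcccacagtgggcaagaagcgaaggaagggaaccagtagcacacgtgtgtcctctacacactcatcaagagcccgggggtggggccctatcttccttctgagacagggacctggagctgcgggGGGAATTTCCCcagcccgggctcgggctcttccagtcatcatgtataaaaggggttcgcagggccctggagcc
Cxcl10 (chr5:92348890-92349139, strand -): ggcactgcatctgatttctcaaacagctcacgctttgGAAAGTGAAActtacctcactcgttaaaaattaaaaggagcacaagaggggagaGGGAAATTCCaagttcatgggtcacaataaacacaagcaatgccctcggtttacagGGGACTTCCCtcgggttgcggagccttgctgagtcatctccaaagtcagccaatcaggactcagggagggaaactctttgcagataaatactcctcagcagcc

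The longest run shared by the windows of Cxcl1, Cxcl2 and Cxcl3, neighbours on chromosome 5, was of 11 bases, GGGAATTTCCC. It began 71, 97 and 73 bases before the start. In all, 14 of 27025 genes (0.0518%), these 3 among them, held it in such a window on either strand. As the run was picked from these 3 genes, that share does not measure how unusual their sharing is. In Cxcl10 there were 2 NF-kB matches, beginning 159 and 103 bases before the start, and 1 response element core at 213 bases. The NF-kB consensus was found in 6 of the 23 chemokine genes (26.1%), against 4.46% of 27025 genes, and the other members with it were Ccl20 and Ccl9. The response element core was found in 2 of 23 (8.70%), Cxcl10 and Cxcl14, against 3.46% of genes. The letters TATAA of the TATA box, searched on the strand of the gene and not marked above, were found in 11 of 23 (47.8%), against 18.4% of genes. These matches are of letters only, and binding was not measured here.

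From 1 day on the picture differed. At 1 day 5 chemokines were at least 1.5-fold higher in PNY (1.88% of genes were), namely Ccl25, Cxcl13, Cxcl3, Cxcl9 and Cxcl10, and 2 were lower (1.09% of genes), Ccl24 and Ccl9. At 3 days 5 were higher (1.14% of genes), Ccl2, Ccl24, Cxcl10, Ccl17 and Cxcl1, and 1 was lower (0.511% of genes), Cxcl13. At 7 days Ccl8 was higher (1.98% of genes) and Ccl24 and Cxcl13 were lower (1.48% of genes). These counts use the probe set kept for each gene. Other probe sets did not reach 1.5-fold for Ccl25 and Cxcl9 at 1 day, at -0.15 and 0.08. Nor did they for Cxcl1 at 3 days, at 0.36 and 0.51, or for Cxcl13 at 7 days, at -0.52. The median difference over the 33 was 0.14 at 1 day and 0.16 at 3 days, and at 7 days 16 chemokines were higher and 16 lower in PNY.

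**Figure D1:**
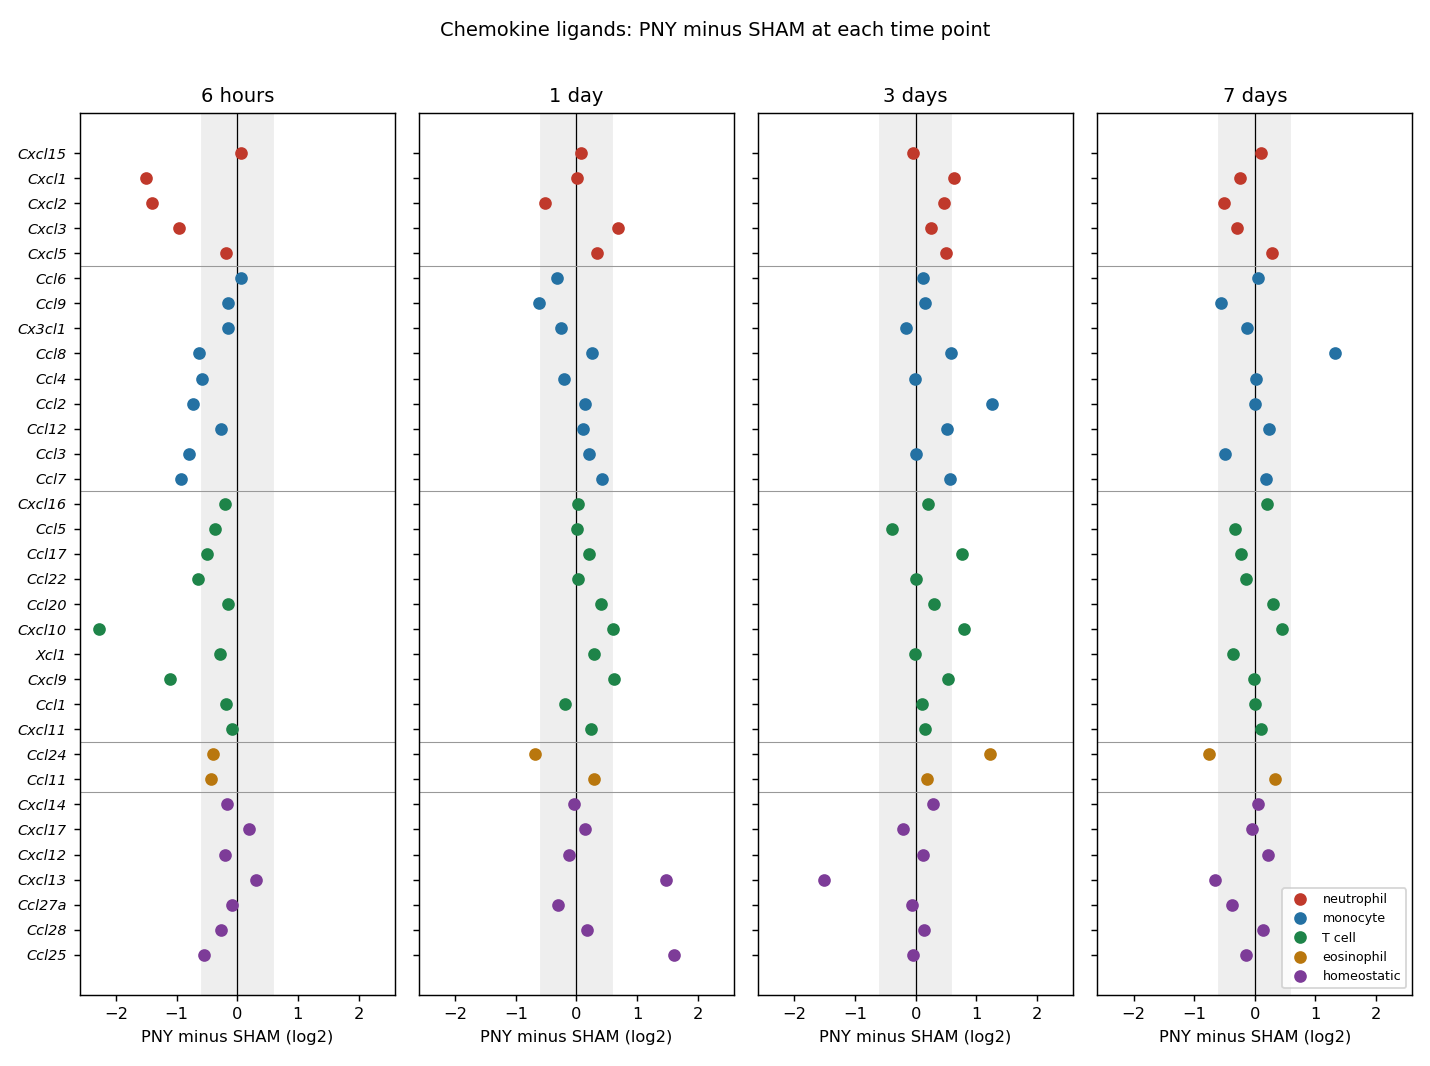
PNY minus SHAM (log2, x axis) of each of the 33 chemokines, 1 point per gene and 1 panel per time point, coloured by role, with differences under 1.5-fold shaded. At 6 hours 29 of 33 points lie left of 0 and 11 lie beyond 1.5-fold on that side, with no point beyond it on the other.

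Of the 33 chemokines, 11 were lower in PNY at 6 hours and higher in PNY at each of 1, 3 and 7 days, a pattern of 7.33% of all genes. They were Ccl2, Ccl7, Ccl8, Ccl11, Ccl12, Ccl20, Ccl28, Cxcl5, Cxcl10, Cxcl11 and Cxcl16. In Ccl28, Cxcl11 and Cxcl16 another probe set was higher in PNY at 6 hours, by 0.18, 0.18 and 0.05. No chemokine was higher in PNY at all 4 times (9.36% of genes were), and Cx3cl1 and Ccl27a were lower at all 4 (5.94% of genes were). Another probe set of Cx3cl1, at a mean level of 8.36, was also lower at all 4, but on those of low level, at 3.79 and 3.64, the sign varied with time. Both probe sets that Ccl27a shares with its copies were higher in PNY at 1 day, by 0.18 and 0.23.

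The shift of the difference between 6 hours and later was tested with limma as an interaction of surgery and time, the mean PNY minus SHAM difference at 1, 3 and 7 days minus that at 6 hours. After Benjamini-Hochberg adjustment over all probe sets no chemokine was called, nor was any gene (0.0% in each direction), although with a trended robust prior Cxcl10 was. At an unadjusted limma p below 0.05, 14 of the 33 (42.4%) had a higher difference later, against 3.51% of genes, and no chemokine had a lower one (1.78% of genes). The 14 were 4 neutrophil chemokines (Cxcl1, Cxcl2, Cxcl3 and Cxcl5), 5 monocyte chemokines (Ccl2, Ccl4, Ccl7, Ccl8 and Ccl12), 4 T cell chemokines (Cxcl9, Cxcl10, Ccl20 and Ccl22) and the eosinophil chemokine Ccl11. Cxcl10 had the largest shift of the 33, 2.90 ± 0.21 (SE), with an adjusted limma p of 0.339, and for the other 13 the adjusted limma p was 0.809. The spread of each gene came from the later differences alone, since 6 hours had 1 PNY and 1 SHAM array. limma then drew it toward a prior taken from all probe sets. With 3 and 7 days set against 6 hours and 1 day the unadjusted count was 2 (3.16% of genes), Ccl8 and Cxcl2, and without both arrays of 3 days it was 9.

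Among the neutrophil chemokines, Cxcl1, the murine KC and a ligand of Cxcr2, gave 8.07, 7.34, 8.12 and 7.84 in PNY lungs at 6 hours and 1, 3 and 7 days, against 9.57, 7.33, 7.49 and 8.09 in SHAM lungs. The SHAM array of 6 hours stood above the other 7 arrays, and PNY was 2.83-fold lower there. Both other probe sets of Cxcl1 were also lower in PNY at 6 hours, by differences of -0.80 and -1.60. Cxcl2, or MIP-2, another ligand of Cxcr2, gave 6.30, 5.18, 6.58 and 6.48 in PNY lungs and 7.71, 5.70, 6.11 and 6.99 in SHAM lungs. It too was highest in the SHAM array of 6 hours, with PNY 2.66-fold lower, and was higher in PNY at 3 days alone.

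Cxcl3, a further ligand of Cxcr2, gave 5.28, 4.43, 6.99 and 7.65 in PNY lungs and 6.24, 3.75, 6.73 and 7.95 in SHAM lungs. It was 1.95-fold lower in PNY at 6 hours. At 1 day, the time of its lowest level after either surgery, PNY was higher by 0.68, between levels near the first quartile of the arrays that were not shown to be above background. Cxcl5, an epithelial neutrophil chemokine also known as LIX, gave 5.17, 5.03, 6.49 and 8.19 in PNY lungs and 5.37, 4.69, 5.99 and 7.90 in SHAM lungs. The groups stayed within 0.51 of each other while the level climbed at 3 and 7 days after both surgeries. Cxcl15, or lungkine, made by the lung epithelium, gave 13.68, 13.88, 13.90 and 13.98 in PNY lungs and 13.63, 13.81, 13.94 and 13.87 in SHAM lungs, with no difference above 0.11.

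Markers of neutrophils moved otherwise than these chemokines at 6 hours. The mean level of 11 neutrophil markers was 9.52, 8.61, 8.38 and 7.86 in PNY lungs and 9.22, 8.45, 8.25 and 8.60 in SHAM lungs, and 10 of the 11 were higher in PNY at 6 hours. At 7 days 1 of 11 was higher in PNY and 7 were at least 1.5-fold lower. Their part in the levels of the chemokines was not tested.

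**Figure D2:**
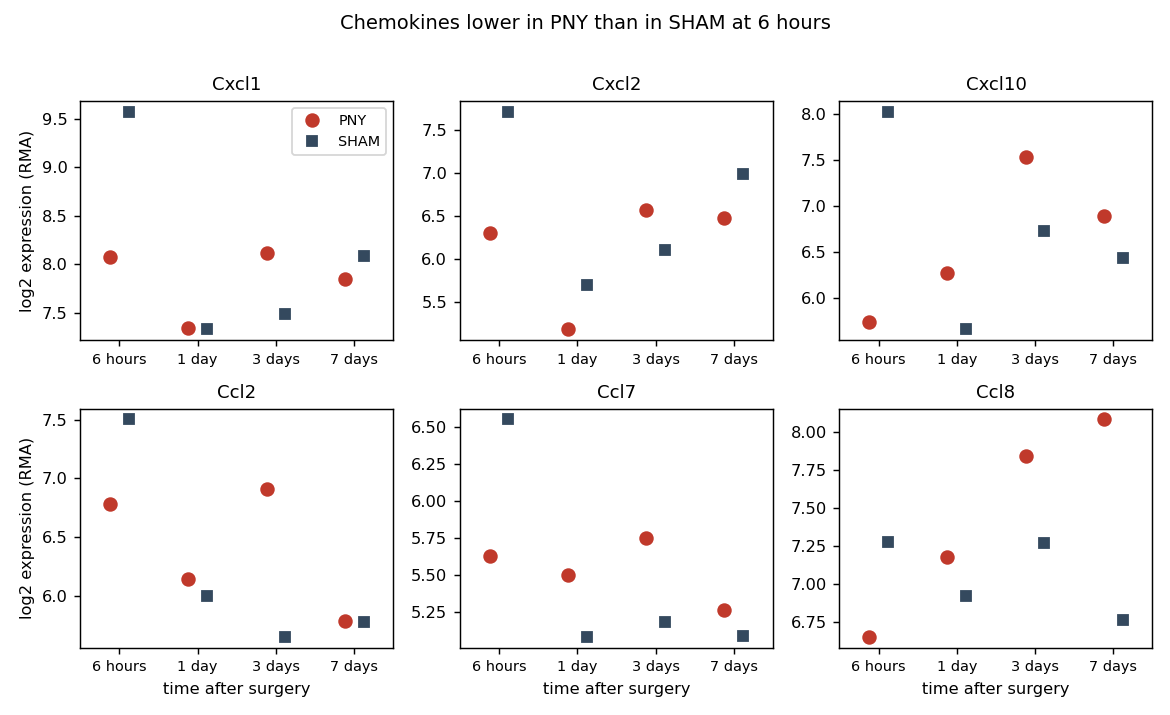
Log2 expression (y axis) of 6 chemokines that were at least 1.5-fold lower in PNY than in SHAM at 6 hours, by time after surgery, with 1 circle for each PNY array and 1 square for each SHAM array. For Cxcl1, Cxcl2, Cxcl10, Ccl2 and Ccl7 the SHAM square of 6 hours is the highest point of its panel, while Ccl8 is highest in PNY at 7 days.

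Among the monocyte chemokines, Ccl2, or MCP-1, the main ligand of Ccr2, gave 6.78, 6.14, 6.91 and 5.79 in PNY lungs, against 7.50, 6.00, 5.65 and 5.78 in SHAM lungs. PNY was 1.65-fold lower at 6 hours and 2.39-fold higher at 3 days, and the groups lay within 0.14 of each other at 1 and 7 days. Ccl8, which in the mouse is a ligand of Ccr8, gave 6.65, 7.17, 7.85 and 8.08 in PNY lungs and 7.28, 6.92, 7.27 and 6.77 in SHAM lungs. In PNY it was higher at each later time point than at the one before, and at 7 days it was 2.49-fold higher than in SHAM. At 7 days 8 monocyte markers averaged 9.75 in PNY lungs and 9.82 in SHAM lungs, while on that pair of arrays PNY exceeded SHAM by 1.5-fold or more in 6 of 8 skeletal muscle markers, and lay as far below it in 6 of 7 B cell markers. The part of these cells in the level of Ccl8 was not tested.

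Ccl4, or MIP-1 beta, a chemokine of activated macrophages, gave 6.21, 6.31, 6.70 and 6.53 in PNY lungs and 6.80, 6.52, 6.71 and 6.51 in SHAM lungs, and was 1.5-fold lower in PNY at 6 hours only. Ccl9, a macrophage chemokine known in mice, gave 9.83, 9.58, 10.33 and 9.75 in PNY lungs and 9.97, 10.19, 10.17 and 10.30 in SHAM lungs, lower in PNY by 1.53-fold at 1 day. Ccl6, its close relative, gave 12.03, 11.74, 12.28 and 12.29 in PNY lungs and 11.98, 12.05, 12.15 and 12.22 in SHAM lungs, and the groups overlapped. Cx3cl1, or fractalkine, a membrane-bound ligand of Cx3cr1, gave 8.14, 8.39, 8.60 and 8.61 in PNY lungs and 8.29, 8.63, 8.77 and 8.74 in SHAM lungs. It was lower in PNY at every time, by differences between -0.25 and -0.13.

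Among the T cell chemokines, Cxcl10, or IP-10, an interferon-inducible ligand of Cxcr3, gave 5.74, 6.27, 7.53 and 6.89 in PNY lungs, against 8.02, 5.66, 6.72 and 6.44 in SHAM lungs. PNY was 4.86-fold lower at 6 hours and higher at the 3 later times, by differences of 0.61, 0.80 and 0.45. Cxcl9, another ligand of Cxcr3 but of low level, differed in the same directions at the first 3 times, by -1.10, 0.63 and 0.53, and by -0.01 at 7 days. Ccl17 and Ccl22 are the ligands of Ccr4 and are made by dendritic cells and macrophages. Ccl17 gave 9.06, 8.01, 8.82 and 8.13 in PNY lungs and 9.56, 7.81, 8.05 and 8.35 in SHAM lungs, with PNY 1.7-fold higher at 3 days. Ccl22 gave 7.64, 6.65, 6.92 and 7.03 in PNY lungs and 8.28, 6.63, 6.91 and 7.18 in SHAM lungs, with PNY 1.56-fold lower at 6 hours and the groups within 0.02 of each other at 1 and 3 days.

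Ccl5, or RANTES, made by T cells and natural killer cells, gave 8.41, 9.14, 9.28 and 9.51 in PNY lungs and 8.77, 9.14, 9.67 and 9.83 in SHAM lungs. PNY was lower at 6 hours and at 3 and 7 days, and the 2 arrays of 1 day were alike. The mean level of 8 T cell markers was 6.07, 7.24, 6.48 and 6.33 in PNY lungs and 6.39, 6.31, 6.64 and 6.79 in SHAM lungs, so that it too was lower in PNY at those 3 times, and its part in the level of Ccl5 was not tested. Cxcl16, the ligand of Cxcr6, gave 9.31, 9.40, 9.62 and 9.58 in PNY lungs and 9.51, 9.37, 9.41 and 9.38 in SHAM lungs, and differed by at most 0.21 upward and -0.20 downward.

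The eosinophil chemokines Ccl11 and Ccl24, or eotaxin-1 and eotaxin-2, are ligands of Ccr3. Ccl24 gave 6.63, 7.03, 7.36 and 6.02 in PNY lungs and 7.03, 7.71, 6.13 and 6.77 in SHAM lungs, and the sign of the difference changed with time, -0.41, -0.69, 1.22 and -0.75. Ccl11 gave 6.47, 6.14, 5.79 and 5.45 in PNY lungs and 6.91, 5.86, 5.61 and 5.11 in SHAM lungs, its highest value after each surgery being that of 6 hours.

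Among the homeostatic chemokines, Cxcl13, which draws B cells into follicles, gave 8.98, 9.18, 6.76 and 6.96 in PNY lungs and 8.68, 7.70, 8.26 and 7.62 in SHAM lungs. PNY was 2.79-fold higher at 1 day and 2.84-fold lower at 3 days, and the second probe set of Cxcl13 gave 1.11 at 1 day and -0.93 at 3 days. The mean level of 7 B cell markers was 7.84 in PNY and 7.46 in SHAM at 1 day, and 7.81 in PNY and 7.90 in SHAM at 3 days, and the part of B cells was not tested. Cxcl12, which holds Cxcr4-bearing cells in place, gave 8.59, 9.90, 9.92 and 10.16 in PNY lungs and 8.79, 10.02, 9.80 and 9.94 in SHAM lungs. At every time its groups lay within 0.22 of each other. Cxcl14, an epithelial chemokine, gave 10.52, 10.49, 10.73 and 10.84 in PNY lungs and 10.69, 10.53, 10.43 and 10.80 in SHAM lungs, and its groups overlapped.

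Ccl25, known for its making by thymic and gut epithelium and for drawing thymocytes through Ccr9, gave 5.51, 8.09, 6.16 and 6.08 in PNY lungs and 6.06, 6.48, 6.20 and 6.23 in SHAM lungs. The PNY array of 1 day stood alone, 3.05-fold above SHAM, and the second probe set of Ccl25, at a lower level, differed there by -0.15. On the same array Ccr9 was 8.86 in PNY against 5.66 in SHAM, and Rag1, the recombinase of developing lymphocytes, was 9.60 in PNY against 3.62 in SHAM. All 10 thymocyte markers were higher in PNY at 1 day, 9 of them by at least 1.5-fold, and their mean level was 8.05 on that array and between 5.77 and 6.24 on the other 7. Their part in the level of Ccl25 was not tested, nor was it for the T cell chemokines at 1 day.

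**Figure D3:**
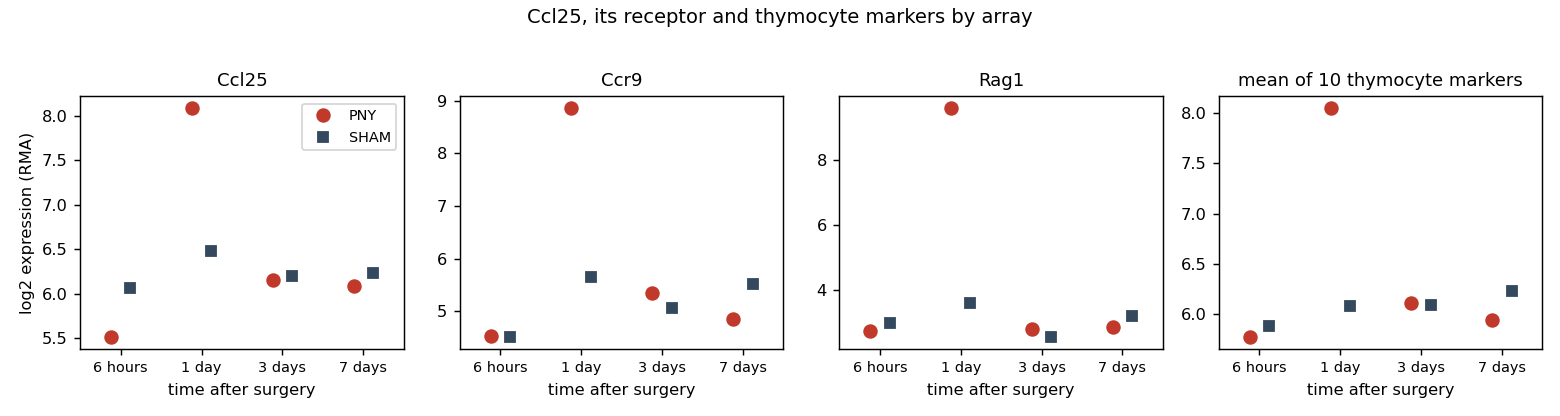
Log2 expression (y axis) of Ccl25, of its receptor Ccr9, of Rag1 and of the mean of 10 thymocyte markers, by time after surgery, with 1 circle for each PNY array and 1 square for each SHAM array. In every panel the PNY circle of 1 day is the highest point, at 8.09 for Ccl25 and 8.05 for the marker mean.

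The remaining 11 chemokines had mean levels between 4.14 and 10.1, and 6 of them lay below the median level of all probe sets, 5.92, as 7 of the 33 did. Their differences between PNY and SHAM at single times ran between -1.10 and 0.63. Of these 11, on the probe sets kept, Ccl3, Ccl7 and Cxcl9 differed by at least 1.5-fold at a time point. Ccl1, Ccl12, Ccl20, Ccl27a, Ccl28, Cxcl11, Cxcl17 and Xcl1 did so at none. Another probe set of Ccl28, at a mean level of 4.72, was higher in PNY by 0.90 at 1 day, which is beyond 1.5-fold.

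Over all time points, with the 4 times as replicates, rank products called no chemokine higher (0.506% of genes were) and none lower (0.0605% of genes) in PNY at the 1.5-fold minimum and a rank product P-value below 0.001. At an unadjusted 0.05 rank products had 11 chemokines higher (4.78% of genes) and 11 lower (3.65% of genes), 4 of them in both lists (Cxcl3, Cxcl5, Cxcl10 and Cxcl13). The 16 array pairs ranked join every PNY array with every SHAM array, most pairs being of different times. Change with time therefore entered these ranks in either direction. Cxcl3 had a rank product P-value of 0.0018 for higher and 0.000113 for lower, and Cxcl5 of 0.000915 and 0.00649. Without the minimum fold change, Cxcl5 was called higher and Cxcl2 and Cxcl3 lower. The mean difference was 0.23 ± 0.30 (SD over 4 time points) for Cxcl5, -0.49 ± 0.77 (SD over 4 time points) for Cxcl2 and -0.08 ± 0.71 (SD over 4 time points) for Cxcl3, so that in all 3 the spread over time exceeded the mean. limma adjusted over all probe sets called none either, with or without time point as a block. At an unadjusted limma p below 0.05 it had none without the block (1.28% of genes were higher and 0.89% lower) and Ccl5 alone with it (3.8% of genes were higher and 2.1% lower), at -0.27 ± 0.18 (SD over 4 time points) with a limma p of 0.0246. The smallest exact two-sided permutation p of the 33 over the 70 splits of the arrays was 0.114, where 0.0286 is the smallest these 8 arrays allow. Those splits did not keep the time points balanced between the groups, so change with time entered this test as well.

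Leaving arrays out brought single calls of rank products. Without both arrays of 6 hours Ccl8 and Cxcl10 were called higher in PNY, at mean differences of 0.72 and 0.62. Without both arrays of 1 day Cxcl13 was called lower, at -0.62, and without both of 3 days Cxcl2 was. No chemokine was called without both arrays of 7 days. When a single array was left out, the PNY and SHAM arrays no longer covered the same times, and the mean difference between them then also held the change with time. In that setting Ccl8 was called higher without the PNY array of 6 hours and Ccl2 without the SHAM array of 6 hours. Cxcl5 was called higher without the PNY array of 1 day or the SHAM array of 7 days, at 0.63 and 0.87, but no difference of Cxcl5 between arrays of the same time exceeded 0.51, and with both arrays of a time left out it was not called. Cxcl3 was called lower without the SHAM array of 1 day or the PNY array of 7 days, at -0.89 and -0.60, but it too was not called with both arrays of a time left out. Cxcl2 was called lower without the SHAM array of 1 day, the PNY or the SHAM array of 3 days, or the PNY array of 7 days.

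The second question was how the chemokines changed with time after either operation, with both surgeries fitted together in limma, 2 arrays to a time point. Later than 6 hours, as the mean of 1, 3 and 7 days, 4 of the 33 chemokines were higher (7.72% of genes were) and 3 were lower (3.5% of genes). The 4 that rose were Cxcl12, Cxcl5, Ccl5 and Cx3cl1, and the 3 that fell were Ccl22, Ccl11 and Ccl17. As 4 of 33 is 12.1% and 3 of 33 is 9.09%, neither count stood far from its background share. Among the cell markers 6 of 7 B cell, 4 of 5 mesothelial and 3 of 7 lung endothelial genes were also called higher later, and 4 of 11 neutrophil genes lower. Their part in these chemokine changes was not tested.

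Cxcl12 rose by 1.27 ± 0.11 (SE), or 2.41-fold, with an adjusted limma p of 0.00165. Its 2 arrays of 6 hours lay below the other 6, and its call held without any 1 array. On another probe set of Cxcl12 the arrays of 6 hours were also the lowest, at 8.68 in PNY and 8.62 in SHAM. On a dimmer one they gave 7.17 and 7.32, and the later arrays ran between 7.14 and 7.70, so the rise was not seen there. Cxcr4, the receptor of Cxcl12, rose too, by 0.46 ± 0.10 (SE), with an adjusted limma p of 0.0329. Cxcl5 rose by 1.11 ± 0.14 (SE) with an adjusted limma p of 0.00446, although at 1 day it was below its levels of 6 hours in both groups.

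Ccl5 rose by 0.84 ± 0.11 (SE) with an adjusted limma p of 0.0054, and its arrays of 6 hours were the lowest of each surgery. Cx3cl1 rose by 0.41 ± 0.09 (SE) with an adjusted limma p of 0.0335, and its receptor Cx3cr1 by 1.13 ± 0.16 (SE) with an adjusted limma p of 0.00645. Both Cx3cl1 arrays of 6 hours lay below the other 6, but the call was lost without any 1 array, at adjusted limma p-values between 0.0559 and 0.214. The calls of Cxcl5 and Ccl5 were lost without the PNY array of 6 hours, at 0.058 and 0.0862, and that of Ccl5 also without the SHAM array of 6 hours, at 0.0625.

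Ccl22 fell later, at -1.07 ± 0.14 (SE) with an adjusted limma p of 0.00555, Ccl17 at -1.12 ± 0.22 (SE) with 0.0211, and Ccl11 at -1.03 ± 0.16 (SE) with 0.00898. In all 3 the highest value after each surgery was that of 6 hours. Ccr4, the receptor of Ccl17 and Ccl22, gave 5.13, 4.79, 5.08 and 5.04 in PNY lungs and 5.38, 4.92, 5.02 and 4.65 in SHAM lungs and was not called, with an adjusted limma p of 0.163.

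**Figure D4:**
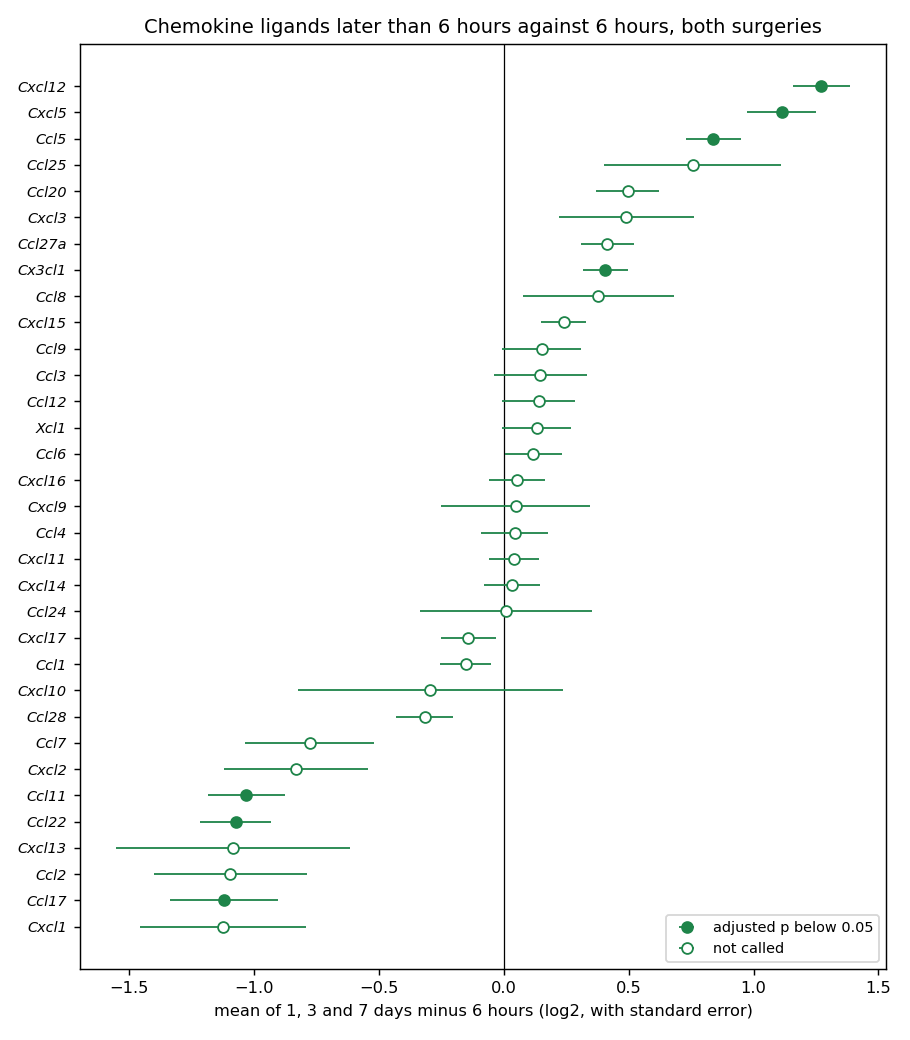
Mean of 1, 3 and 7 days minus 6 hours (log2, x axis) of each of the 33 chemokines, from 6 later arrays and 2 of 6 hours with both surgeries fitted together, with the standard error as bars and called genes filled. Cxcl12, Cxcl5, Ccl5 and Cx3cl1 are filled to the right of 0 and Ccl22, Ccl11 and Ccl17 to the left.

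Of the members not called, Cxcl1 and Ccl2 had estimates as large, -1.12 ± 0.33 (SE) and -1.09 ± 0.31 (SE), with adjusted limma p-values of 0.0804 and 0.069. In these genes the PNY and SHAM arrays of 6 hours lay apart, as described above. Cxcl10 turned with the array used. Its estimate was -0.29 ± 0.53 (SE) with both, but 1.16 without the SHAM array of 6 hours (adjusted limma p of 0.033) and -1.75 without the PNY array of 6 hours (adjusted limma p of 0.0198). Without the SHAM array of 6 hours no chemokine was called lower later. Without the PNY array of 6 hours Cxcl12 alone was called higher, and Cxcl1, Cxcl10 and Ccl7 joined Ccl11 and Ccl22 as lower.

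The receptors were read beside the ligands, and 17 of 19 were measured by a probe set of their own. Rank products called none of the 17 in either direction (0.506% of genes were called higher and 0.0605% lower). The paper lists Ccr9 among its up-regulated genes. Here, on the probe set kept, the mean difference of Ccr9 was 0.71, with a rank product P-value of 0.00172 for higher. Later than 6 hours Cxcr4, Cxcr5 and Cx3cr1 rose (7.72% of genes were called higher). Ccr1 and Cxcr2, both carried by neutrophils among other cells, fell (3.5% of genes were called lower). Cxcr2 gave 8.32, 7.16, 7.02 and 6.38 in PNY lungs and 8.18, 6.97, 6.60 and 7.05 in SHAM lungs, and its later minus 6 hours estimate was -1.39 ± 0.19 (SE) with an adjusted limma p of 0.00641. Cxcr2 was thus lowest in PNY at 7 days. Of its ligands, Cxcl3 and Cxcl5 were then higher than at 6 hours in both groups, and Cxcl1 was lower in both. On another probe set of Cxcl1, however, PNY was 7.76 at 7 days and 7.70 at 6 hours. Cxcl2 was then lower than at 6 hours in SHAM, at 6.99 against 7.71, and slightly higher in PNY, at 6.48 against 6.30. Most of the 5 atypical and scavenger receptors listed take up chemokines without signalling for movement. Of the 5, Ackr2 alone was called, lower later, at -0.58 ± 0.11 (SE) with an adjusted limma p of 0.0219.

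Between 1 day and the 2 later times, 2 of the 33 chemokines rose, Cxcl3 and Cxcl5 (0.0275% of genes were called higher), and none was called lower (0.0165% of genes), while at an unadjusted limma p below 0.05 8 were higher (9.72% of genes) and 2 lower (3.72% of genes). They were 2 of 5 genes called higher in all. Cxcl5 rose by 2.28 ± 0.15 (SE), or 4.87-fold, with an adjusted limma p of 0.00608. The Cxcl5 levels of 1 day, 5.03 in PNY and 4.69 in SHAM, lay below the median level of all probe sets, 5.92. They too were not shown to be above background, so the fold is uncertain. Cxcl3 rose by 3.24 ± 0.29 (SE) with an adjusted limma p of 0.0308. Its levels of 1 day, 4.43 in PNY and 3.75 in SHAM, lay near the first quartile of the arrays, 4.02 to 4.18, and were not shown to be above background, so no fold is given. For both genes the 4 arrays of 3 and 7 days lay above the 2 of 1 day, and in each group 7 days lay above 3 days. The call of Cxcl3 was lost without the PNY or the SHAM array of 3 days or the PNY array of 7 days, with adjusted limma p-values of 0.149, 0.097 and 0.0752, while that of Cxcl5 held without any 1 array.

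Between 7 and 3 days no chemokine was called, nor was any gene (0.0% in each direction). Cxcl5 was 1.81 ± 0.17 (SE) higher at 7 days, with an adjusted limma p of 0.302. With a trended robust prior in limma Cxcl5 was called. At an unadjusted limma p below 0.05, 3 chemokines were higher (1.84% of genes) and 1 was lower (1.77% of genes) at 7 days.

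**Figure D5:**
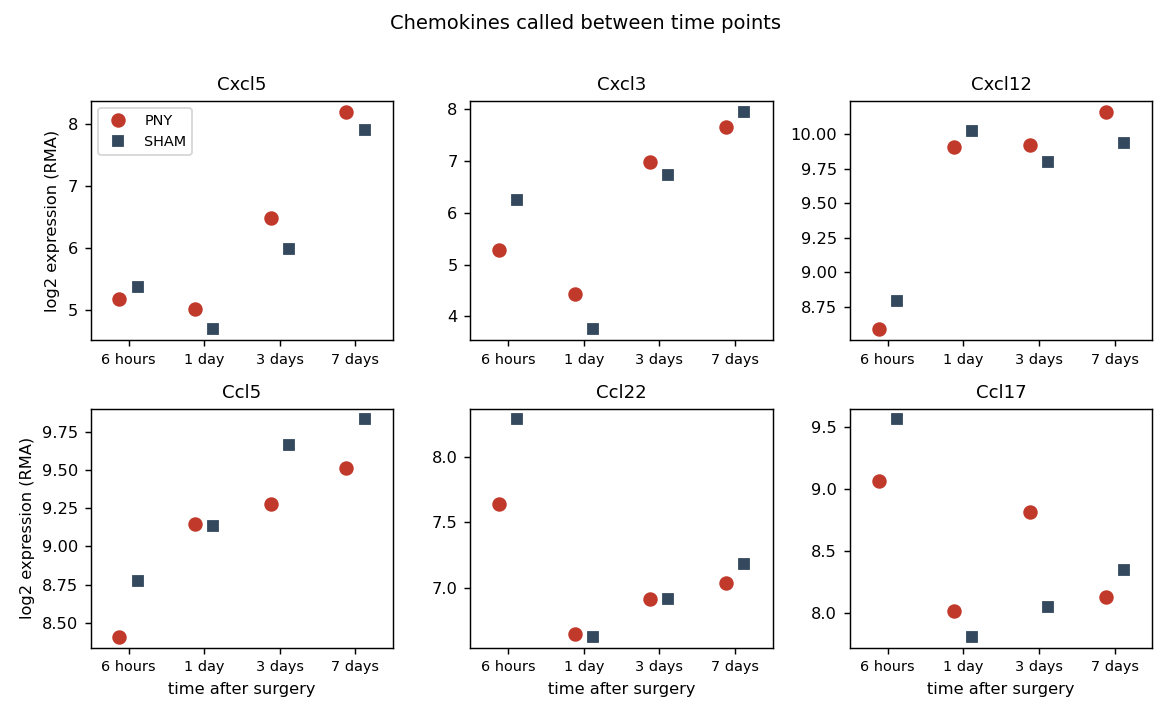
Log2 expression (y axis) of 6 chemokines called between time points, by time after surgery, with 1 circle for each PNY array and 1 square for each SHAM array. Cxcl5 and Cxcl3 are highest at 7 days in both groups, Cxcl12 and Ccl5 are lowest at 6 hours in both, and Ccl22 and Ccl17 are highest at 6 hours in both.

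Many chemokine genes lie side by side, and 22 of the 33 fell into 5 clusters of members less than 1 Mb apart. On chromosome 5 all 5 neutrophil chemokines (Cxcl1, Cxcl2, Cxcl3, Cxcl5 and Cxcl15) formed 1 cluster, in which the difference at 6 hours ran between -1.50 for Cxcl1 and 0.05 for Cxcl15. The other cluster of chromosome 5 held the ligands of Cxcr3, Cxcl9, Cxcl10 and Cxcl11, with a median of -1.10 at 6 hours, 0.61 at 1 day and 0.53 at 3 days. On chromosome 11 the 6 genes Ccl1, Ccl2, Ccl7, Ccl8, Ccl11 and Ccl12 were all lower in PNY at 6 hours, with a median of -0.53, and all higher at 3 days, with a median of 0.54. In the neighbouring cluster of Ccl3, Ccl4, Ccl5, Ccl6 and Ccl9, 4 of 5 were lower at 6 hours, with a median of -0.37, and the median at 3 days was 0.01. On chromosome 8 Ccl17, Ccl22 and Cx3cl1 were all lower in PNY at 6 hours and at 7 days.

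As a family the chemokines varied more than most genes. The median range of a chemokine over the 8 arrays was 1.27, against 0.49 over all genes, and by role it was 2.53 for neutrophil, 1.74 for eosinophil, 1.19 for T cell, 0.90 for monocyte and 0.66 for homeostatic chemokines. Cxcl3 had the widest range of the 33, 4.20, and Cxcl11 the narrowest, 0.25, at a mean level below that of most probe sets.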

How the data were processed

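Expression was measured on 8 Affymetrix mouse genome arrays, 1 for each of 4 PNY and 4 SHAM pools of 8 mice. The deposited values are log2 expression, which the authors made with RMA, so that background was corrected, arrays were quantile normalized together, and probes were summarized by probe set. The log base was taken from the range of the values, and the version is not given in the sources used here. Of 45101 probe sets the 64 controls were left out, and the other 45037 were tested with no filter; 34945 carry 1 symbol, 932 several and 9160 none. RefSeq names matched all 33 chemokines. Array precision is limited by the number of arrays.

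PNY was compared with SHAM by rank products (a script of Python 3.11.15, numpy 2.4.6 and pandas 2.3.3) over the 16 array pairs, with 1000 permutations (100 for alternatives), and called where P was below 0.001 and the difference at least 1.5-fold. Times, and the interaction of surgery with time, were fitted with limma 3.58.1 in R 4.3.3, with 3 and 2 residual degrees of freedom, and called at a Benjamini-Hochberg adjusted p below 0.05 over all probe sets. Background shares count 1 probe set per gene, as for the chemokines. Both tests were tested on simulated data. Deviations of PNY and SHAM arrays of the same time from their group means correlated at 0.605, 0.357, 0.303 and 0.295, each above 0.1, so time was taken to pair the arrays, although PNY of 7 days correlated with SHAM of 3 days at 0.340; the blocked fit called no chemokine.

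Chemokines given array by array were those called in any comparison, those above the median level of all probe sets with a 1.5-fold difference at a time point, and in each role the one with the highest mean. Others are given by ranges and counts, but Cxcl9 and single values of Ccl7 and of other probe sets were added after their values were seen. The chemokine lists, marker lists and tests were chosen with earlier results of these data known. Levels of different genes were not compared, since probe sets differ in response. Alternatives were centring, a further quantile normalization, a filter at the median level, averaging over the probe sets of a gene, a trended robust prior, and leaving out arrays. Figures were drawn with matplotlib 3.10.9.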

Additional observations from a re-analysis of the deposited data

Results flagged for a closer look

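Cxcl12 on the PNY array of 6 hours was far from the other PNY arrays, at 8.59 against 9.90 to 10.2, and its gap to the nearest was 0.838 of the range of the 4. The SHAM array of 6 hours was likewise the lowest of its group, at 8.79. In all, 44 groups of 4 arrays were looked at in this way over the chemokines given array by array, and 1 stood out, where chance gives about 1 in 20.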

How the results depend on the processing

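The count of 0 chemokines higher in PNY by rank products became 1 (Cxcl5) with no minimum fold change, and ran between 0 and 2 when arrays were left out. The count of 0 lower became 2 (Cxcl2 and Cxcl3) with no minimum fold change, and ran between 0 and 2 when arrays were left out. The 4 higher later than at 6 hours became 7 with a trended robust prior (Ccl20, Ccl27a and Cxcl15 were added) and ran between 1 and 4 without 1 array, and the 3 lower ran between 0 and 5. The 2 higher at 3 and 7 days than at 1 day became 3 with the trended robust prior (Ccl20 was added) and ran between 1 and 2 without 1 array, and the 0 lower ran between 0 and 1, with Ccl25 called without the SHAM array of 1 day. At 7 against 3 days 1 was called higher (Cxcl5) with the trended robust prior. In the interaction 1 was called (Cxcl10) with that prior. Its count at an unadjusted p, an alternative chosen after seeing the data, was 14 higher, between 9 and 14 without a time point and 2 with 3 and 7 days against 6 hours and 1 day, and 0 lower, between 0 and 1 and then 1 (Cxcl13). Cxcl10 later than at 6 hours was -0.29 with all arrays, but 1.16 without the SHAM array of 6 hours and -1.75 without the PNY array of 6 hours. Cx3cl1 lost its call without any 1 array and with 3 of the other alternatives, and its fold was below 1.5. The causes were not tested. The 11 chemokines at least 1.5-fold lower in PNY at 6 hours were 9 with centred arrays (without Ccl4 and Ccl8), 12 after a further quantile normalization (with Ccl17), 11 with averaged probe sets, and 8 among the 26 above the median level, and none was 1.5-fold higher in any of these, which were added after seeing the data. No array could be left out at 6 hours alone.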

Other observations

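The 4 chemokine probe sets that carry several symbols, and so cannot be given to 1 gene, include those of Ccl19 and Ccl21, the ligands of Ccr7, which guide dendritic and T cells into lymphatics and lymph nodes. The probe set shared by the near-identical Ccl21 genes gave 10.45, 10.43, 10.88 and 11.07 in PNY lungs at 6 hours and 1, 3 and 7 days, and 10.34, 10.87, 10.96 and 10.73 in SHAM lungs, lower in PNY at 1 and 3 days. The one shared by Ccl19 and its copies gave 7.69, 7.58, 7.40 and 7.26 in PNY lungs and 7.71, 7.43, 7.40 and 7.43 in SHAM lungs, and differed by at most 0.16 either way. Both probe sets shared by Ccl27a, Ccl27b and their copies differed between -0.29 and 0.23. None of the 4 reached 1.5-fold at any time.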
